A study of Arabidopsis thaliana with 9 samples.

Results

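The precursors of the phosphate-starvation miRNAs miR399 and miR827 were examined in Arabidopsis thaliana seedlings lacking factors of miRNA processing. The members were all probes that the array files name ath-MIR399a to ath-MIR399f and ath-MIR827. These were 10 of 15013 probes and 7 of 5154 transcripts, with 2 probes each for MIR399a, MIR399b and MIR827 and 1 probe for each of the other 4. Seedlings were 2 weeks old, grown on solid MS medium under long days, and were Col-0 wild type (WT), the se-2 mutant of SERRATE or the cbp20 cbp80 double mutant. Each genotype had 3 biological replicates and 1 one-colour array per replicate. The RNA levels of SERRATE, CBP20 and CBP80 were not analysed here, so the genotypes rest on the labels. Whole seedlings were used, so fewer expressing cells and less RNA per cell cannot be told apart, and the labels give no phosphate treatment.

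miR399 guides the cutting of PHO2 mRNA. PHO2 is a ubiquitin-conjugating enzyme that limits the amount of phosphate exporters and transporters, so a plant short of phosphate makes miR399 under the transcription factor PHR1 and takes up more phosphate. miR827 targets NLA, a RING ubiquitin ligase that acts on phosphate transporters at the plasma membrane. Both miRNAs are cut by DCL1 from folded precursor transcripts. SERRATE, a zinc finger protein, assists that cutting, and CBP20 and CBP80 form the cap-binding complex that binds the 5′ end of the transcript. The arrays measured RNA that hybridised to precursor probes and not the mature miRNAs. By the TAIR10.1 gene table MIR399d, MIR399e and MIR399f are direct neighbours on chromosome 2, while MIR399a and MIR399b lie on chromosome 1, MIR399c on chromosome 5 and MIR827 on chromosome 3. Probe sequences were not used here, so how far probes of this family detect each other's transcripts was not tested.

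Values are given as relative signal, the processed signal in percent of the 75th percentile of the same array, taken over the 1835 probes that every one of the 9 arrays had well above background. The levels of different probes were not set against each other. The 6 mutant arrays shared 1 slide and the 3 WT arrays came from 3 other slides, so in each mutant against WT the slide and the genotype cannot be told apart. No WT array had both the software version and the software protocol of the mutant arrays. Software and genotype therefore cannot be told apart either. A fit with the slide as a random block, called slide-blocked here, is given beside the calls against WT. WT arrays also varied more than mutant arrays, with a median standard deviation (SD) over tested probes of 0.545 on the log2 scale against 0.0859 in se-2 and 0.107 in cbp20 cbp80. The fits against WT used 1 spread per probe for all 3 genotypes. Their standard errors (SE) and p-values may therefore be too small. Between 14.6% and 24.7% of the probes were well above background, and precision is limited by the small number of arrays. Unless another test is named, an adjusted p comes from limma with Benjamini-Hochberg adjustment over all 3103 tested probes.

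In WT most member values were not well above background. Of 30 WT values 5 were, and all 5 came from WT replicate 2, for MIR399b (both probes), MIR399c, MIR399d and MIR399f. The highest was MIR399d at 7.26%, where that array's lowest signal well above background was 1.19%. WT replicate 2 also had the most probes well above background, 3711 against 2192 and 3147 on the other WT arrays. In se-2 all 30 values were well above background, and in cbp20 cbp80 22 of 30 were. The 8 values that were not well above background in cbp20 cbp80 belonged to MIR399a and to the second probe of MIR399b. A probe was tested where all 3 arrays of at least 1 genotype had it well above background. All 10 member probes met this only through a mutant. Their counts, calls and p-values against WT, slide-blocked or not, are therefore a description and no independent support.

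**Figure D1:**
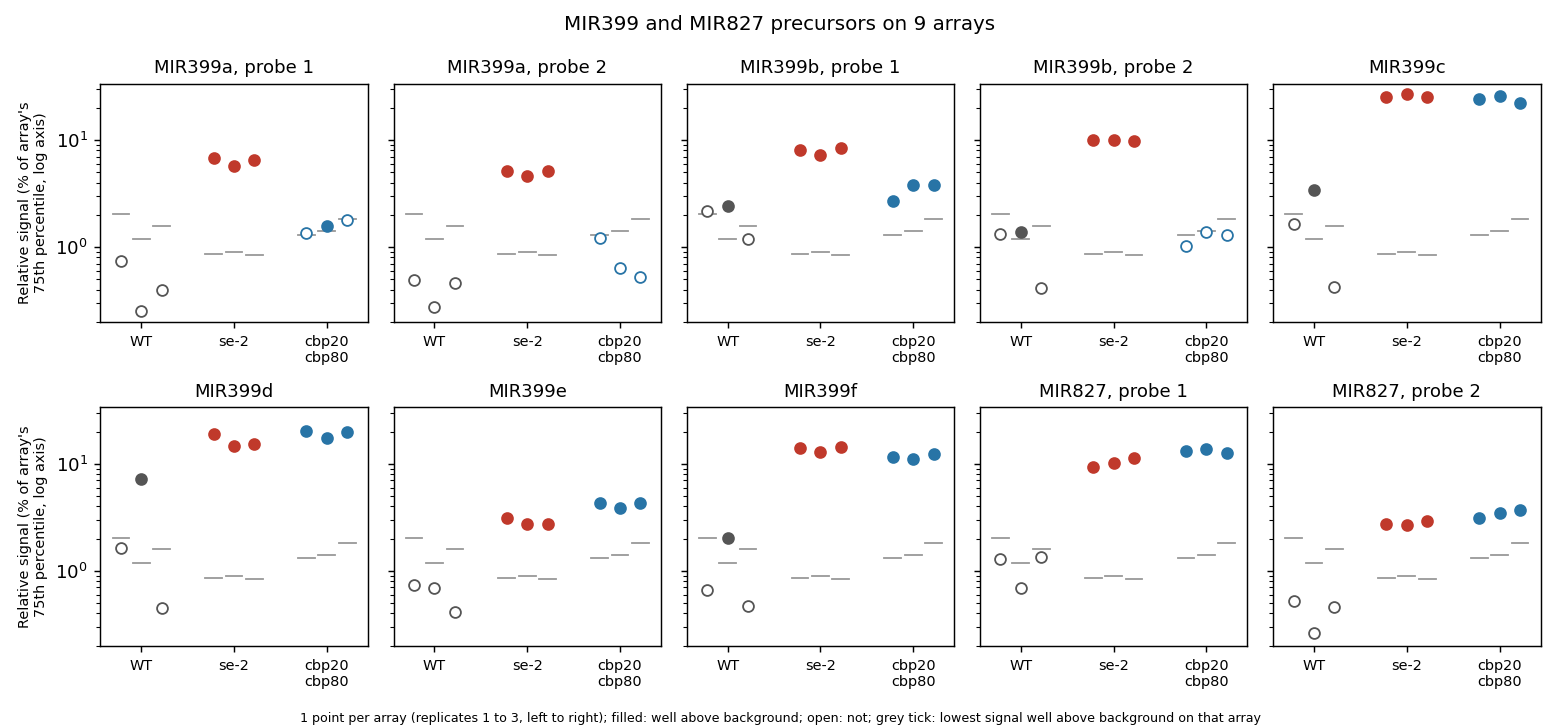
Relative signal of the 10 member probes (percent of the array's 75th percentile, log axis) on 9 arrays, 1 point per array, with filled points well above background, open points not, and grey ticks at each array's lowest signal well above background. MIR399a and MIR399b stand highest in se-2, whereas MIR399c, MIR399d, MIR399e, MIR399f and MIR827 stand high in both mutants, and the 5 filled WT points all belong to replicate 2.

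MIR399c, one of the genes for miR399, had a relative signal of 1.65%, 3.38% and 0.421% in WT replicates 1 to 3. It had 25.3%, 26.6% and 25.4% in se-2 and 24.0%, 26.0% and 22.2% in cbp20 cbp80. Both mutants lay far above every WT array, and the mutants overlapped each other. By limma over all tested probes, the log2 difference from WT was 4.28 ± 0.63 (SE, n = 3) in se-2 and 4.17 ± 0.63 in cbp20 cbp80. As 1 WT array was well above background, the rise is written as a bound, at least 11.6-fold in se-2 and at least 10.8-fold in cbp20 cbp80. The adjusted p by limma was 0.00106 and 0.00127, and slide-blocked it was 0.0371 and 0.0459.

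The clustered precursors MIR399d, MIR399e and MIR399f rose in both mutants as well, but most of these calls did not hold with normexp background correction (offset 50). With it MIR399e turned to -0.71 in se-2, called lower (adjusted p 0.000226 by limma), and to -0.20 in cbp20 cbp80, not called (0.144). MIR399f was at 0.056 and 0.23, not called in either (adjusted p 0.616 and 0.0766 by limma). MIR399d was at 0.11 in se-2 (0.348, not called) and at 0.50 in cbp20 cbp80, where it was called. The cause was not tested. MIR399d stood at 1.63%, 7.26% and 0.446% in WT, at 19.1%, 14.6% and 15.2% in se-2 and at 20.2%, 17.6% and 19.8% in cbp20 cbp80. WT replicate 2 was thus the WT array closest to the mutants, though still below each of them. The rise was at least 5.67-fold in se-2 and at least 6.71-fold in cbp20 cbp80. Its adjusted p by limma was 0.0152 and 0.0115, and slide-blocked both calls ended, at 0.258 and 0.235. MIR399f was at 0.664%, 2.01% and 0.468% in WT, at 14.0%, 13.0% and 14.4% in se-2 and at 11.7%, 11.1% and 12.4% in cbp20 cbp80. It rose at least 7.40-fold in se-2 and at least 6.31-fold in cbp20 cbp80, and both calls held when slide-blocked (adjusted p 0.0152 and 0.0233 by limma). MIR399e was dim (not well above background) on all WT arrays, at 0.738%, 0.697% and 0.411%. It reached 3.09%, 2.73% and 2.71% in se-2 and 4.26%, 3.85% and 4.29% in cbp20 cbp80, all well above background. Its rise was at least 1.82-fold and at least 2.64-fold, with slide-blocked adjusted p 0.0412 and 0.0191 by limma.

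Leaving out single WT arrays moved these changes by more than 1.5 times. Without WT replicate 2 the log2 difference was 4.94 for MIR399c, 4.24 for MIR399d and 4.62 for MIR399f in se-2, and 4.85, 4.49 and 4.39 in cbp20 cbp80. Without WT replicate 3 it was 3.44 for MIR399c and 2.23 for MIR399d in se-2, and 3.34 and 2.48 in cbp20 cbp80. All of these were called by limma. Without se-2 replicate 1 the call of MIR399d in se-2 ended at 0.0525.

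MIR827, the gene for miR827, rose in both mutants (in se-2 it was -0.085 with normexp) and was dim on all WT arrays by either probe. Its brighter probe had a relative signal of 1.30%, 0.697% and 1.35% in WT. In se-2 it had 9.36%, 10.3% and 11.2%, and in cbp20 cbp80 13.2%, 13.8% and 12.6%. All mutant values were above all WT values, and those of cbp20 cbp80 were above those of se-2. The rise over WT was at least 6.56-fold in se-2 and at least 8.43-fold in cbp20 cbp80, with slide-blocked adjusted p 0.0109 and 0.00978 by limma. The second probe gave the same order, with WT between 0.265% and 0.525%, se-2 between 2.65% and 2.93%, and cbp20 cbp80 between 3.14% and 3.67%. Both probes share each array's scaling, however. Before scaling the mean processed signal was higher in se-2, at 53.4 against 43.7 (brighter probe) and 14.4 against 11.3 (second probe). By the brighter probe the log2 difference between the mutants shrank to as little as -0.014, and it was not called in 9 of 18 alternatives.

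MIR399a was well above background only in se-2 and, by 1 of its probes, on 1 cbp20 cbp80 array. Its brighter probe read 0.738%, 0.251% and 0.394% in WT, 6.74%, 5.69% and 6.46% in se-2 and 1.34%, 1.57% and 1.79% in cbp20 cbp80. The se-2 arrays lay above all others, and the cbp20 cbp80 arrays lay between them and WT, within the range of the arrays' lowest signals well above background (0.847% to 2.03%). The rise in se-2 was at least 4.01-fold (adjusted p 6.69e-05 by limma, slide-blocked 0.0255), and it turned to -0.31 with normexp. In cbp20 cbp80 the log2 difference of 1.90 ± 0.35 passed by limma (adjusted p 0.00365), though not when slide-blocked (0.301), and its bound allowed no change. The second probe read 5.09%, 4.60% and 5.08% in se-2 and was not well above background on any other array. It exceeded WT at least 3.14-fold in se-2 (adjusted p 8.14e-05 by limma, slide-blocked 0.309), and in cbp20 cbp80 its 0.90 ± 0.34 did not pass (adjusted p 0.0666 by limma).

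MIR399b was also highest in se-2, by both of its probes. The brighter probe had 2.16%, 2.43% and 1.18% in WT, 7.98%, 7.20% and 8.45% in se-2 and 2.71%, 3.76% and 3.77% in cbp20 cbp80. The second probe had 1.32%, 1.37% and 0.416% in WT, 9.90%, 10.01% and 9.74% in se-2 and 1.02%, 1.37% and 1.29% in cbp20 cbp80. By the second probe cbp20 cbp80 overlapped WT and was not well above background on any array. In se-2 the rise over WT was at least 3.88-fold by the brighter probe and at least 6.03-fold by the second. Slide-blocked, these calls ended (adjusted p 0.258 and 0.0517 by limma). By the brighter probe the difference turned to -0.30 with normexp, called lower (adjusted p 0.0194 by limma). In cbp20 cbp80 the brighter probe was at least 1.66-fold higher (adjusted p 0.0390 by limma). That call ended when slide-blocked (0.745) and in 11 of the other alternatives, among them those without cbp20 cbp80 replicate 2 or replicate 3 (both 0.117). The second probe, at 0.42 ± 0.42, did not pass (adjusted p 0.457 by limma).

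By the brightest probe of each precursor, 7 of 7 members were called higher in se-2 by limma, where 18.2% of the 1724 tested transcripts and 76.2% of the 126 tested precursors were. The median log2 difference was 3.26 for the members, 2.81 for all tested precursors and 0.013 for all tested transcripts. With transcripts dim on all arrays of a genotype set at their bounds, these medians were 2.71, 2.31 and 0. In cbp20 cbp80 7 of 7 were called higher as well, against 24.4% of the transcripts and 69.8% of the precursors, and the medians were 3.46, 2.28 and 0.26. Slide-blocked, 5 of 7 were higher in se-2 (transcripts 5.51%, precursors 54.0%) and 4 of 7 in cbp20 cbp80 (4.93% and 43.7%). Those 4 were MIR399c, MIR399e, MIR399f and MIR827, and in se-2 MIR399a was added. No overlap of the lists is drawn from this, since both comparisons share the 3 WT arrays. All 10 member probes lay above every WT array in se-2 (25.0% of the tested probes did), and 9 of 10 did in cbp20 cbp80 (28.5%).

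**Figure D2:**
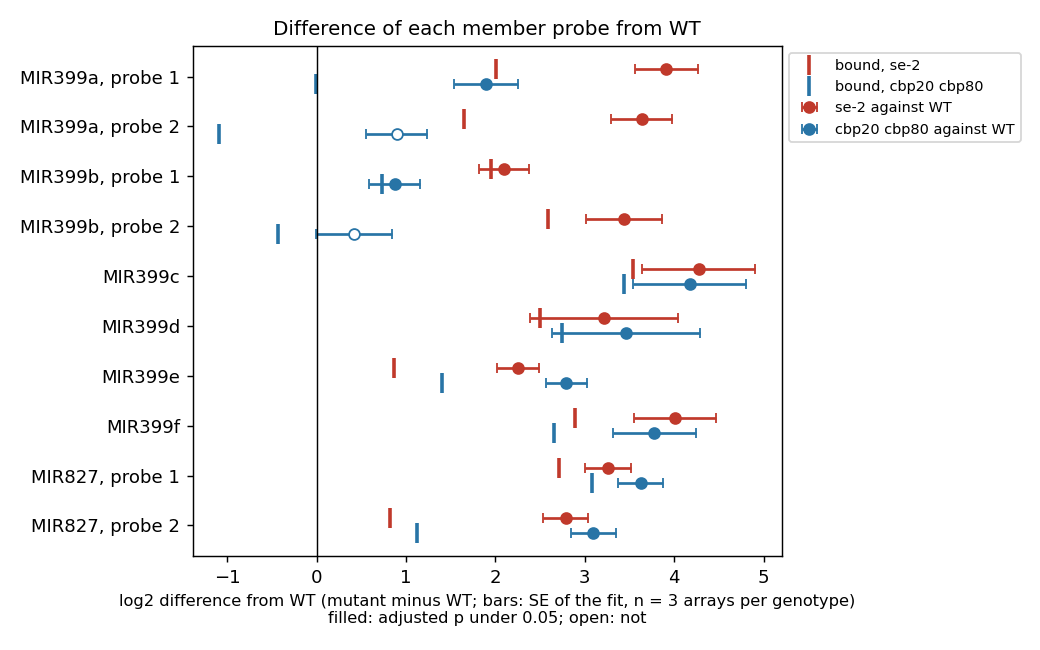
Log2 difference from WT for each member probe (points, with SE bars from limma, n = 3 arrays per genotype) and its bound (vertical ticks, with dim WT arrays raised to their lowest signal well above background). For MIR399c, MIR399d, MIR399e, MIR399f and MIR827 the bounds of both mutants lie above 0. The bound of cbp20 cbp80 lies at or below 0 for both MIR399a probes and for the second MIR399b probe. With normexp, not drawn, MIR399a, MIR399b and MIR399e turn sign in both mutants and MIR827 in se-2.

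The direct comparison of the mutants asked whether precursor signals differ between se-2 and cbp20 cbp80, and it lies within 1 slide. How far a precursor depends on SERRATE or on the cap-binding complex was not tested. The comparison was fitted on the 6 mutant arrays alone. Both MIR399a probes and the second MIR399b probe had passed the filter through se-2 alone, the group where they are high, so their values here are a description and their p-values no independent support. The brighter MIR399b probe had passed through either mutant. MIR399a was 4.04-fold higher in se-2 than in cbp20 cbp80 by the brighter probe (2.01 ± 0.13, adjusted p 0.000195 by limma). As only 1 cbp20 cbp80 array was well above background, its bound was at least 4.02-fold. By its second probe MIR399a was at least 3.30-fold higher. MIR399b was 2.33-fold higher by the brighter probe (1.22 ± 0.15, adjusted p 0.00206 by limma) and at least 6.63-fold higher by the second. The se-2 and cbp20 cbp80 arrays did not overlap for any of these 4 probes. In all, 5 of the 10 member probes lay higher on every se-2 array (17.7% of the tested probes did) and 3 lay lower (42.7%). As 3 of those 5 were admitted through se-2 alone, these counts are no support either. Leaving out any 1 mutant array left the log2 difference at 1.91 to 2.11 for MIR399a and at 1.06 to 1.29 for MIR399b, by the brighter probe.

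The other members differed little between the mutants, by at most 1.45-fold. MIR399c differed by 0.10, with a 95% interval of -0.076 to 0.28 on the log2 scale, and MIR399d by -0.24, with one of -0.55 to 0.064. Neither passed, with adjusted p 0.287 and 0.158 by limma. MIR399c was called, however, with median scaling (0.0235), the percentile over all probes (0.0138), normexp with quantile normalization (0.0196) and, with its sign turned, normexp alone (0.0284). MIR399f was 1.17-fold higher in se-2 (adjusted p 0.0360 by limma). MIR399e was 1.45-fold and MIR827 1.29-fold lower in se-2 (adjusted p 0.00340 and 0.0163 by limma). The call of MIR399f ended without se-2 replicate 1 or 3 or cbp20 cbp80 replicate 1 or 2 (adjusted p 0.0785 to 0.111), and that of MIR827 without replicate 2 of se-2 or of cbp20 cbp80 (0.0542 and 0.0513). MIR399d was called without se-2 replicate 1 (0.0341) and with normexp alone, at -0.38 (adjusted p 0.000157 by limma). These small differences moved with the scaling of the arrays. The median of all tested probes was -0.15 here and ranged from -0.44 to 0.20 over the other ways of making the values, and MIR399e and MIR827 were not called after quantile normalization, with the percentile over all probes or in the deposited values. Of 18 alternatives, MIR399e was not called in 5 and MIR827 in 9. For MIR827 these included median scaling, the replicate block and all 9 arrays in the fit.

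Across all tested transcripts 47.0% were called between the mutants, 11.4% higher and 35.6% lower in se-2, and of the 7 members 3 were higher and 2 lower. Of the 126 tested precursors 77 (61.1%) were higher and 17 (13.5%) lower in se-2, with a median of 0.46, against 0.10 for the members. MIR399a and MIR399b lay above that precursor median and the other 5 members below it. For 4 of the 126 precursors the lower mutant was dim on all arrays, so their places in the order are not measured.

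**Figure D3:**
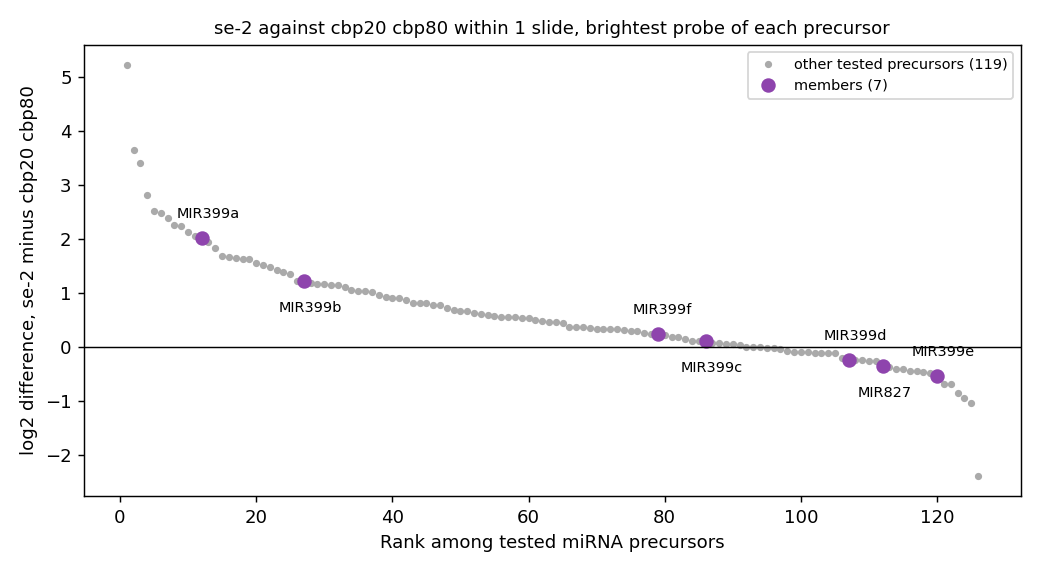
Log2 difference between se-2 and cbp20 cbp80 for the brightest probe of all 126 tested miRNA precursors, ordered from the highest (vertical axis, difference; horizontal axis, rank), with the 7 members enlarged. MIR399a and MIR399b lie among the precursors higher in se-2. The other 5 members lie between -0.54 and 0.23, and of these MIR399e and MIR827 are called lower in se-2 and MIR399f higher.

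**Figure D4:**
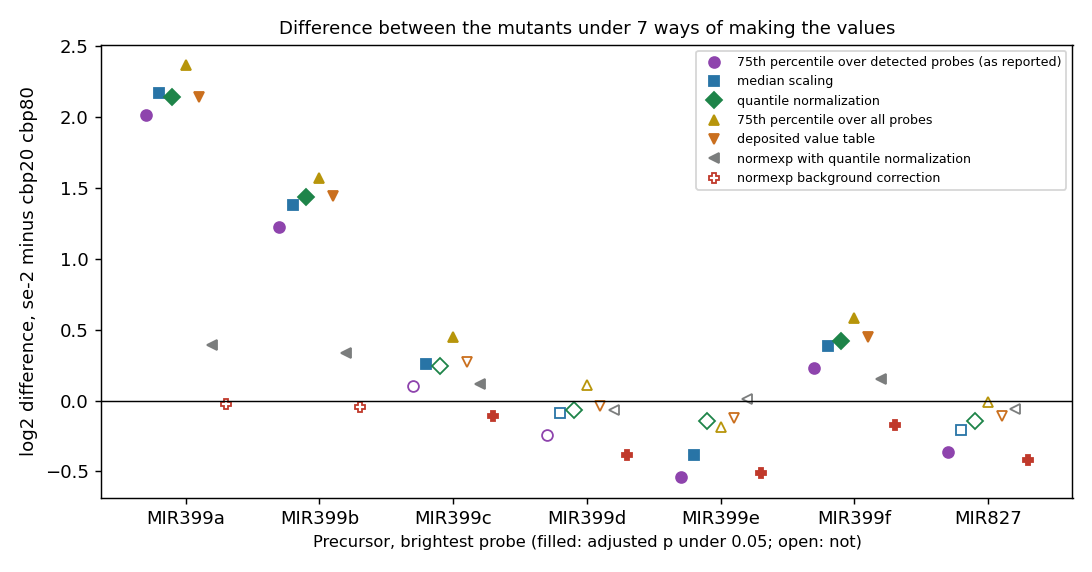
Log2 difference between se-2 and cbp20 cbp80 for each member's brightest probe under 7 ways of making the values, with filled symbols for an adjusted p under 0.05. MIR399a and MIR399b stay above 1 in 5 of them, and fall to 0.39 and 0.34 with normexp and quantile normalization and to about 0 with normexp alone.

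Other precursors tied to a nutrient changed in the same direction against WT. Of the 6 MIR395 precursors, whose miRNA responds to sulfate shortage, 3 were tested, and all 3 were called higher in se-2 and in cbp20 cbp80 (medians 3.85 and 3.49). Of these, 2 were dim on all WT arrays and so had passed the filter only through a mutant. With those 2 at their bounds the medians were 3.09 and 2.81, and slide-blocked 2 of 3 were called in each mutant. Of 7 copper-responsive precursors (MIR397a, MIR397b, MIR398a to MIR398c, MIR408 and MIR857) 4 were tested. All 4 were higher in both mutants (medians 3.28 and 2.96), or 3 of 4 in each when slide-blocked. Of all tested precursors 76.2% were called higher in se-2 and 69.8% in cbp20 cbp80 (slide-blocked 54.0% and 43.7%). Of all tested transcripts 18.2% and 24.4% were (slide-blocked 5.51% and 4.93%). Between the mutants the 4 copper precursors ranged from 0.24 to 0.37 and the 3 MIR395 precursors from -0.0034 to 0.36. The MIR399 and MIR827 precursors ranged from -0.54 to 2.01, and the upper end is MIR399a, which had passed the filter through se-2 alone. All 126 tested precursors ranged from -2.39 to 5.22. No test set these groups against each other.

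Of 43 names on a list of phosphate-response genes, 4 had probes here, namely NLA, MIR778, MIR2111a and MIR2111b. NLA, the miR827 target, had 3 probes, of which 1 was called against WT, and in se-2 alone. Its brightest probe read 289%, 496% and 227% in WT, 354%, 348% and 345% in se-2 and 348%, 351% and 340% in cbp20 cbp80. Both mutants lay within the range of WT, and the differences of 0.13 ± 0.26 and 0.12 ± 0.26 did not pass (adjusted p 0.731 and 0.748 by limma), with 95% intervals of -0.48 to 0.74 and -0.49 to 0.72. Its second probe was 1.93-fold higher in se-2 (adjusted p 0.0432 by limma, slide-blocked 0.522) and did not pass in cbp20 cbp80 (0.0560). The third probe did not pass against WT, with adjusted p 0.800 and 0.257 by limma, and was 1.37-fold lower in se-2 than in cbp20 cbp80 (adjusted p 0.0434 by limma).

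MIR2111a and MIR2111b are the genes of a further phosphate-starvation miRNA. MIR2111a, by its brighter probe, was not well above background in WT, at 0.596%, 1.30% and 1.29%. It read 6.14%, 5.47% and 5.95% in se-2 and 6.09%, 6.44% and 6.004% in cbp20 cbp80, with the mutants overlapping. It rose at least 3.64-fold and at least 3.84-fold, with slide-blocked adjusted p 0.0265 and 0.0267 by limma. Its second probe was well above background on 3 se-2 arrays and 1 cbp20 cbp80 array, and was called against WT in se-2 (adjusted p 0.0375 by limma, slide-blocked 0.893) and not in cbp20 cbp80 (0.323). Its bound in se-2 allowed no change. Both MIR2111a probes had passed the filter only through a mutant, so their calls against WT are a description too. MIR2111b was well above background in se-2 and on no cbp20 cbp80 array, by both probes. Its second probe read 1.81%, 2.02% and 2.14% in se-2 and 0.259%, 0.312% and 0.504% in cbp20 cbp80, or at least 1.33-fold higher in se-2. This probe too had passed the filter through se-2 alone, so its difference is a description. No test compared the MIR2111 genes with each other. Its other probe was well above background also on WT replicate 2, at 3.34%, above every se-2 array. MIR778, another precursor of a phosphate-starvation miRNA, was well above background on no array and was not tested.

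**Figure D5:**
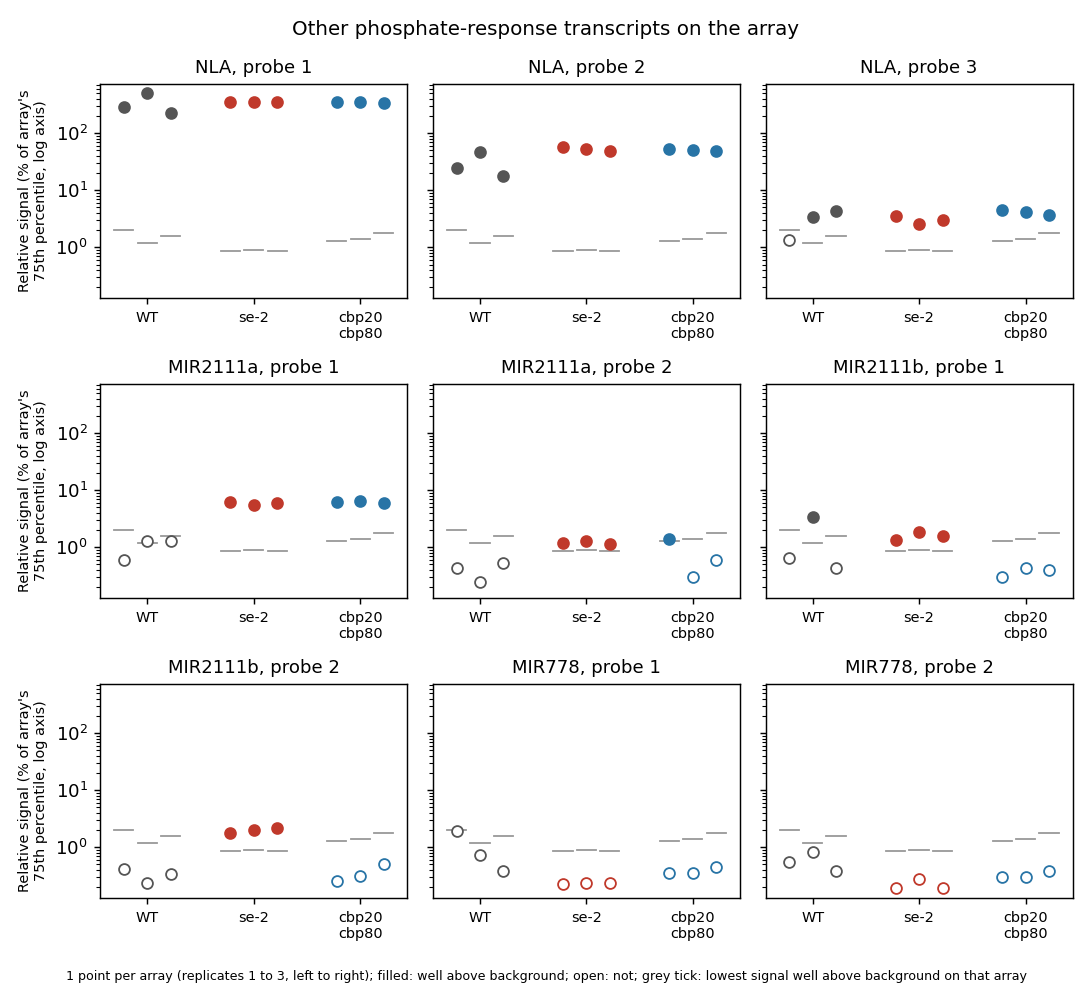
Relative signal of the NLA, MIR2111a, MIR2111b and MIR778 probes (percent of the array's 75th percentile, log axis) on 9 arrays, drawn as in the plot of the member probes. The brightest NLA probe is at 227% to 496% on every array, MIR2111a is high in both mutants by probe 1, MIR2111b is filled in se-2 and on 1 WT array, and MIR778 is open on all arrays.

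MIR399c was well above background on 7 arrays, as were MIR399b (by its brighter probe), MIR399d and MIR399f, and was taken for its highest mean signal on the arrays. Over the 9 arrays its pattern was most like those of CCA1 (Pearson 0.99, Spearman 0.77), LHY (0.99 and 0.90) and MIR399f (0.99 and 0.73), among 208 tested transcripts with a symbol. CCA1 and LHY encode MYB transcription factors of the circadian clock. These values share arrays and scaling, and the arrays fall into WT and mutant sets, so the correlations describe 2 sets of arrays more than 9 separate points.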

How the data were processed

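The authors deposited scanner files with an intensity per spot and a value table. Per the labels' protocols, Cy3-labelled RNA was made from 0.5 µg total RNA. Per the file headers, Agilent Feature Extraction 10.5.1.1 (WT replicates 1 and 2) or 10.7.3.1 (other arrays) subtracted background and detrended each array, and WT replicate 3 had another software protocol. The authors' deposited table is read as log2 values from its column medians of 0.320 to 0.323, which no header states, and its centring is unknown. It served as an alternative.

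Control spots and outlier spots (0 to 39 per array) were left out, and no spot was saturated. From the log2 of the processed signal, the array's own 75th percentile was subtracted, taken over 1835 probes that all 9 arrays had well above background. The 3103 probes that 1 or more genotypes had well above background on each array were fitted with limma 3.58.1 (R 4.3.3), with 23 values missing, none of a member. All 9 arrays entered the fits against WT, and 6 the fit between mutants. A probe was called at a Benjamini-Hochberg adjusted p under 0.05, and the fit was tested on simulated data. For a bound, an array where the probe was dim entered with its own lowest well-above-background signal, or with the probe's signal where that was higher. Slide was a random block (duplicateCorrelation, consensus 0.948), whose p-values may be too small. Same-numbered replicates did not deviate together (correlations -0.049 to 0.032), so the replicate number was not a block. As the files hold no mean signal, normexp (offset 50) used median signals. Members were represented by their brightest probe, and the likeness rule took the 3 highest correlations with the member detected on most arrays (a tie of 4, broken by mean signal). Members, lists and rules were chosen with earlier results of these data known. Names on lists of leaf, root, floral organ and housekeeping genes had 0 probes here.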

Additional observations from a re-analysis of the deposited data

How the results depend on the processing

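The 5 precursors raised in both mutants and the excess of MIR399a and MIR399b in se-2 over cbp20 cbp80 kept their direction under the alternatives run, except where named here. MIR399a had passed the filter through se-2 alone, and all members passed only through a mutant. Most alternatives kept that filter, so this steadiness is a description and no independent support. Normexp background correction (offset 50) moved the median of all tested probes to -0.77 in se-2 and -0.31 in cbp20 cbp80. Under it 3 members were called in se-2 (1 higher, MIR399c, and 2 lower, MIR399b and MIR399e) and 3 in cbp20 cbp80, all higher. For cbp20 cbp80 normexp called 347 of 3103 tested probes higher than WT and 1568 lower. In se-2 against WT it gave -0.31 for MIR399a, -0.30 for MIR399b, -0.71 for MIR399e and -0.085 for MIR827. In cbp20 cbp80 against WT it gave -0.29, -0.26 and -0.20 for MIR399a, MIR399b and MIR399e. Between the mutants it gave -0.022, -0.046, -0.11 and -0.17 for MIR399a, MIR399b, MIR399c and MIR399f. With dim signals at their array's lowest signal well above background, an alternative added after seeing the data, MIR399a in cbp20 cbp80 was -0.0036 from WT. Between the mutants MIR399d was 0.11 with the percentile over all probes, and MIR399e was 0.012 with normexp and quantile normalization. The cause of these turns was not tested. Members called between the mutants, 5 as reported, numbered 3 after quantile normalization, 3 in the deposited values and 2 with all 9 arrays in the fit, these 2 being MIR399a and MIR399b. Of all 3103 tested probes, 421 were called higher and 1061 lower in se-2 as reported. The numbers were 713 and 526 after quantile normalization, 730 and 438 in the deposited values and 101 and 91 with all 9 arrays. With the slide as a block 5 members were called in se-2 and 4 in cbp20 cbp80. Leaving out 1 array at a time gave 6 to 7 in se-2, 6 to 7 in cbp20 cbp80 and 3 to 5 between the mutants, with 3 without cbp20 cbp80 replicate 2. The replicate block left 7, 6 and 4 called. The stricter filter left no member. Scaling changed the split of all called probes in se-2 from 624 higher and 649 lower to 1762 and 177 (percentile over all probes) or 274 and 2294 (normexp).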
